A study of Bos grunniens x Bos taurus and Bos grunniens with 6 samples.

Results

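The blood-testis barrier is the seal that Sertoli cells, the supporting cells of the seminiferous tubule, build between each other near the tubule wall. It combines tight junctions (claudins, occludin and junctional adhesion molecules held to the actin skeleton by zonula occludens adaptors), a testis-specific adherens junction with N-cadherin, and gap junctions of connexin 43. It opens and closes again as germ cells pass, and it keeps meiotic and haploid germ cells apart from the blood. The genes examined were those with the symbols CLDN11, OCLN, CLDN3, F11R, JAM2, JAM3, TJP1, CDH2 and GJA1, taken as a named list of 9 and matched without regard to case to the 18918 genes of the deposited FPKM table. A single gene was found for each of 7 symbols. OCLN (occludin) and CLDN3 (claudin 3) matched no gene by symbol and were not analysed here.

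Testis tissue of 3 yak (Gannan breed; animals Y1 to Y3) was compared with that of 3 cattle-yak, the F1 males of a Jersey sire and a Gannan yak dam (C1 to C3), with 1 RNA-seq library per animal and every animal 4 years old. The groups were kept in different counties, and testes came from castrated cattle-yak and from euthanized yak, so genotype, place and way of collection cannot be told apart. FPKM (fragments per kilobase of gene model, scaled to the depth of the library) is a level per length and per depth, and can therefore be set side by side between genes of one library. In whole tissue, fewer cells of a type and less RNA per cell cannot be told apart. The cattle-yak libraries held 11175100 to 11834987 fragments assigned to genes and the yak libraries 12991641 to 13136129, and 1 fragment on a gene of 1 kb stood for 0.0761 to 0.0895 FPKM.

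All 7 junction genes were higher in cattle-yak, from 2.16-fold (JAM3) to 8.06-fold (GJA1) in the mean FPKM as deposited. On the deposited scale each of the 7 passed the call used here, a Benjamini-Hochberg adjusted p under 0.05 over all 15042 tested genes and a log2 fold change beyond 1 in limma on log2 (FPKM + 1), as did 33.4% of the tested genes in that direction. In each of them the 3 cattle-yak values lay above the 3 yak values, which was so for 53.9% of the tested genes. The median log2 fold change of the 7 genes was 2.21, against 0.51 over all tested genes, and at an adjusted p under 0.05 alone 52.6% of the tested genes lay above 0 and 29.2% below. Size factors of the median-of-ratios kind left a median of 0.01 over the whole table, and with them 5 of the 7 were called higher, as were 17.7% of the tested genes, and TJP1 and JAM3 were under the threshold of 1. Relative to the markers of Sertoli cells in the same library, given further on, none of the 7 passed both thresholds. At an adjusted p under 0.05 alone GJA1 rose more than the markers, and 2.31% of the tested genes had a group difference above theirs. TJP1 and JAM3 rose less than the markers, and 85.6% of the tested genes had a group difference below theirs. F11R also rose less, a call that was lost in 4 of the 6 fits without an animal and with the median of the marker list.

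**Figure D1:**
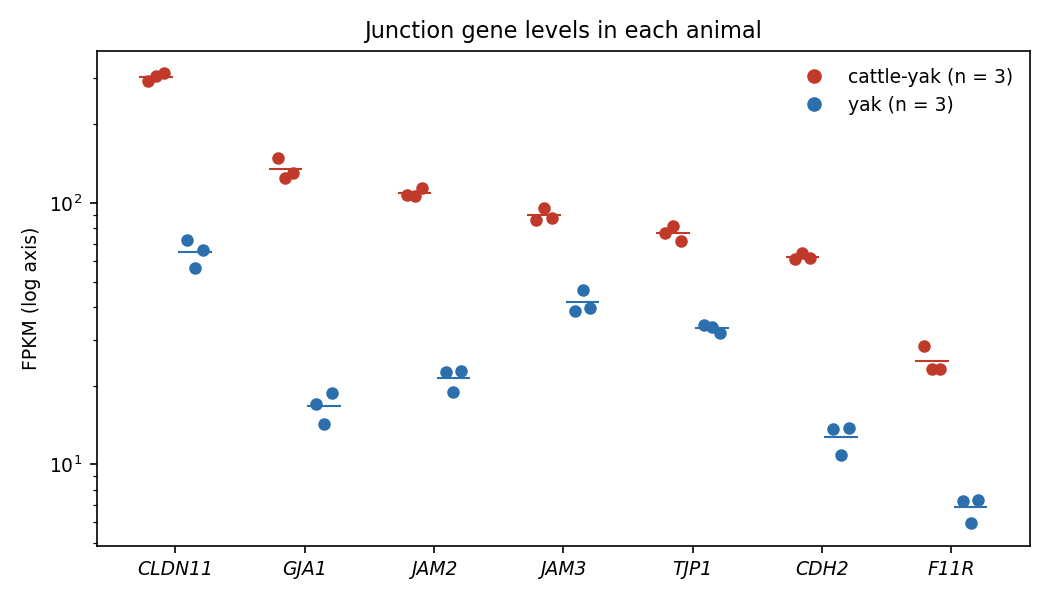
FPKM (log axis) of the 7 junction genes in each animal, with a horizontal line at the group mean (cattle-yak and yak, n = 3 each). In the deposited values the groups do not overlap in any gene (relative to Sertoli markers TJP1 and JAM3 lie lower in cattle-yak, as do 85.6% of the tested genes, while the lower value of F11R does not hold without C2, C3, Y2 or Y3), and GJA1 moves from below JAM3, TJP1 and JAM2 in yak to the second place in cattle-yak.

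Claudins form the paired strands of tight junctions, and claudin 11 is the strand-forming claudin of Sertoli cells. CLDN11 (ENSBGRG00000006186) had 292.6, 307.5 and 314.0 FPKM in C1, C2 and C3, and 72.5, 56.4 and 65.9 in Y1, Y2 and Y3. It was the most abundant of the 7 genes in every animal, and the lowest cattle-yak animal exceeded the highest yak animal several times over. The group means were 304.7 ± 11 and 64.9 ± 8.10 FPKM (SD, n = 3), a log2 fold change of 2.22 (SE 0.11, limma adjusted p = 6.9e-07). Between 1059 and 5223 fragments stood behind each value, so counting error was small next to the difference. Of all tested genes, 4.51% had a larger log2 fold change.

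The junctional adhesion molecules are single-pass proteins of the immunoglobulin superfamily that pair across the cleft beside the claudins. JAM2 (JAM-B, ENSBGRG00000000059), which binds JAM-C between Sertoli and germ cells, had 107.2, 106.9 and 113.9 FPKM in C1 to C3 and 22.6, 18.9 and 22.8 in Y1 to Y3. The cattle-yak animals differed little among themselves, and Y2 was the lowest of all 6. The log2 fold change of JAM2 was 2.30 (SE 0.10, limma adjusted p = 4.9e-07).

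F11R (JAM-A, ENSBGRG00000000756), the form common to epithelia, endothelium and leukocytes, was the least abundant of the 7 genes in every animal. It had 28.4, 23.3 and 23.2 FPKM in C1 to C3 and 7.26, 5.96 and 7.34 in Y1 to Y3, with 127 fragments in Y2 as the fewest behind any of the values. Its log2 fold change was 1.72 (SE 0.14, limma adjusted p = 7.5e-06).

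JAM3 (JAM-C, ENSBGRG00000024118), which spermatids carry as a partner of JAM-B, showed the smallest difference of the family. It had 86.3, 95.7 and 88.0 FPKM in C1 to C3 and 38.8, 46.6 and 39.8 in Y1 to Y3. Here Y2 was the highest yak animal, while it was the lowest in CLDN11, JAM2, F11R, CDH2 and GJA1. The log2 fold change of JAM3 was 1.09 (SE 0.10, limma adjusted p = 2.1e-05), and 0.48 (limma adjusted p = 3.9e-03) with median-of-ratios scaling.

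The proportions within the JAM family, which do not depend on the scaling between libraries, differed between the groups. JAM2 stood at 1.24, 1.12 and 1.29 times the FPKM of JAM3 in C1, C2 and C3, but at 0.583, 0.407 and 0.573 times in Y1, Y2 and Y3. JAM3 was thus the leading JAM gene in each yak animal and JAM2 in each cattle-yak animal, a shift of 1.24 in the log2 ratio. The ratio of F11R to JAM3 shifted by 0.75 in the same direction, and that of F11R to JAM2 by −0.49. None of these ratios overlapped between the groups, as was so for 18 of all 21 pairs of the 7 genes. The share among pairs of other genes was not computed. Taken singly, 53.9% of the tested genes lay higher and 30.2% lower in cattle-yak without overlap. Each of the 3 ratios had p = 0.1 in a two-sided exact permutation test (0.1 after Benjamini-Hochberg adjustment over the 3 pairs). That is the smallest p that 3 animals against 3 allow.

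TJP1 (ZO-1, ENSBGRG00000012231), the adaptor that ties claudins, occludin and JAM-A to actin, had 76.9, 81.6 and 71.7 FPKM in C1 to C3 and 34.2, 33.6 and 31.8 in Y1 to Y3. The yak animals were closer to each other in this gene than in any of the other 6, with an SD of 3.78% of the mean. The log2 fold change was 1.18 (SE 0.09, limma adjusted p = 7.5e-06), and 0.58 (limma adjusted p = 6.5e-04) with median-of-ratios scaling. The rise of TJP1 and JAM3 was small next to that of the other members, and 27.7% and 30.2% of the tested genes had a larger log2 fold change.

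CDH2 (N-cadherin, ENSBGRG00000023975), the classical cadherin of the basal ectoplasmic specialization, had 61.2, 64.6 and 61.6 FPKM in C1 to C3 and 13.7, 10.9 and 13.8 in Y1 to Y3. Its log2 fold change was 2.21 (SE 0.12, limma adjusted p = 9.9e-07), close to that of CLDN11. In this pair, singled out after its values were seen, CLDN11 stood at 4.76 to 5.10 times the FPKM of CDH2 in cattle-yak and at 4.77 to 5.30 times in yak, and the ranges overlapped.

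GJA1 (connexin 43, ENSBGRG00000009758), which forms the channels between Sertoli cells and is also a connexin of Leydig and muscle cells, differed most. It had 148.5, 124.6 and 130.4 FPKM in C1, C2 and C3, against 17.0, 14.2 and 18.8 in Y1, Y2 and Y3. Every cattle-yak value was several times the highest yak value. The log2 fold change was 2.94 (SE 0.13, limma adjusted p = 3.9e-07), and 0.512% of the tested genes had a larger one. The ratio of GJA1 to CLDN11 was 0.508, 0.405 and 0.415 in C1 to C3 and 0.235, 0.253 and 0.285 in Y1 to Y3 (exact permutation test of the log2 ratio, two-sided, p = 0.1, the smallest possible), a pair singled out after its values were seen.

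The order of the levels therefore differed between the groups, and it was the same in the 3 animals of each. In yak it ran CLDN11, JAM3, TJP1, JAM2, GJA1, CDH2 and F11R, and in cattle-yak CLDN11, GJA1, JAM2, JAM3, TJP1, CDH2 and F11R. Neighbours in the order did not overlap in either group, although in yak the lowest JAM2 value (18.9 FPKM) lay barely above the highest GJA1 value (18.8 FPKM), and the lowest GJA1 value (14.2 FPKM) barely above the highest CDH2 value (13.8 FPKM). GJA1 moved from place 5 to place 2, JAM3 from place 2 to place 4, and TJP1 from place 3 to place 5.

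Because Sertoli cells build the barrier, although other cells also make several of these proteins, the members were also compared with the RNA of that cell type in the same library. The list of Sertoli markers (SOX9, SOX8, WT1, AMH, AMHR2, FSHR, DHH, INHA, INHBB, CLU, KITLG, TF and EMX2) holds none of the 7 genes. Of its 12 tested genes, where CLU counts as 2, 11 were called higher in cattle-yak, against 33.4% of all tested genes. Their log2 fold changes had a median of 2.21 and a range from 0.89 (EMX2) to 2.87 (KITLG). With median-of-ratios scaling 9 of the 12 were called higher, against 17.7%. The mean log2 (FPKM + 1) of the list reached 5.65 to 5.68 in cattle-yak, against 3.47 to 3.72 in yak, a difference of 2.08. Y2 was the yak animal with the lowest level of this list, as of most of the junction genes.

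With each library centred on that level, none of the 7 genes passed both thresholds in limma, and 4 had an unadjusted p under 0.05. Of all tested genes 0.306% were called higher on this scale and 69.0% lower. The values given here are the group difference of a gene minus that of the list. The rises of CLDN11 (0.15, 95% interval −0.11 to 0.40, limma adjusted p = 0.24), CDH2 (0.13, −0.13 to 0.40, limma adjusted p = 0.30) and JAM2 (0.23, −0.03 to 0.48, limma adjusted p = 0.088) were not distinguishable from that of the list. Their intervals leave room for differences of up to 0.48. GJA1 rose more than the list by 0.87 (0.57 to 1.16, limma adjusted p = 1.6e-04). At an adjusted p under 0.05, 2.31% of the tested genes had a group difference above that of the list. The highest marker of the list itself, KITLG, stood at 0.79, within the interval of GJA1, and GJA1 was not tested against it.

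TJP1 and JAM3 rose less than the Sertoli list, by −0.89 (−1.17 to −0.62, limma adjusted p = 6.9e-05) and −0.98 (−1.32 to −0.65, limma adjusted p = 1.5e-04). In level both lay above the mean of the list in every animal, TJP1 by 0.53 to 1.65 and JAM3 by 0.77 to 2.10 on the log2 scale. F11R rose less than the list by a smaller amount, −0.35 (−0.66 to −0.04, limma adjusted p = 0.036), and did not pass without C2, C3 or Y3 (limma adjusted p = 0.11 each), without Y2 (0.051), or with the median of the list in place of its mean (0.065). A group difference below that of the list was common, as it held for 85.6% of the tested genes at an adjusted p under 0.05. JAM3 was at the edge of the fold threshold, and passed it without C2 (−1.02), without Y1 (−1.09) and without Y3 (−1.01). The fit takes the level of the list as known, while the group differences of its 12 genes spread from −1.18 to 0.79 around their mean (SD 0.65). This range holds TJP1 and JAM3.

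**Figure D2:**
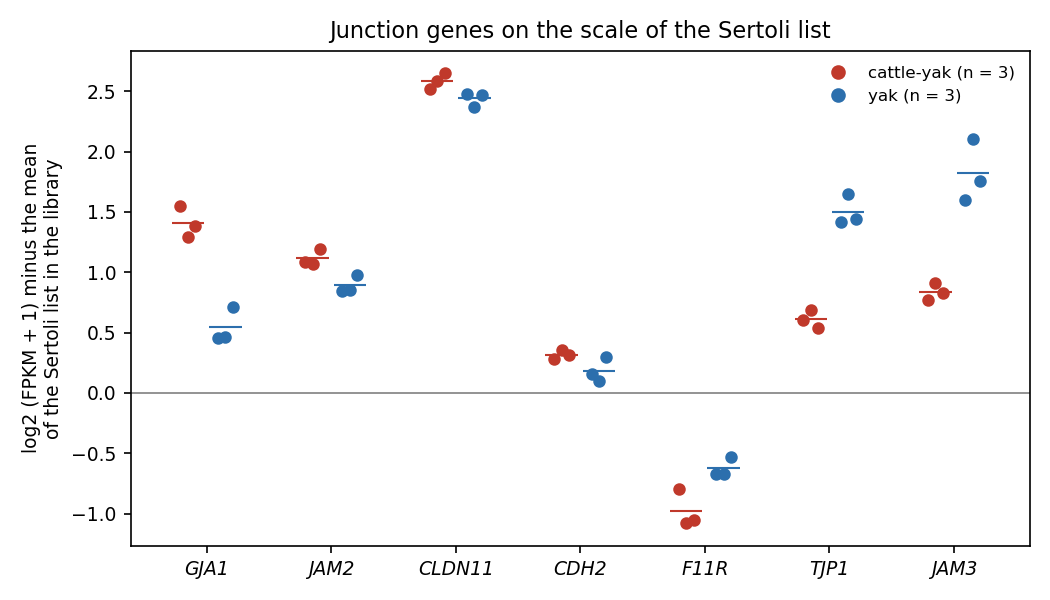
Each point is the log2 (FPKM + 1) of a junction gene in 1 animal minus the mean log2 (FPKM + 1) of the Sertoli list in the same library, with a line at the group mean (n = 3 per group). CLDN11, CDH2 and JAM2 differ by at most 0.23 between the group means, GJA1 is 0.87 higher in cattle-yak, and TJP1 and JAM3 are 0.89 and 0.98 lower.

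**Figure D3:**
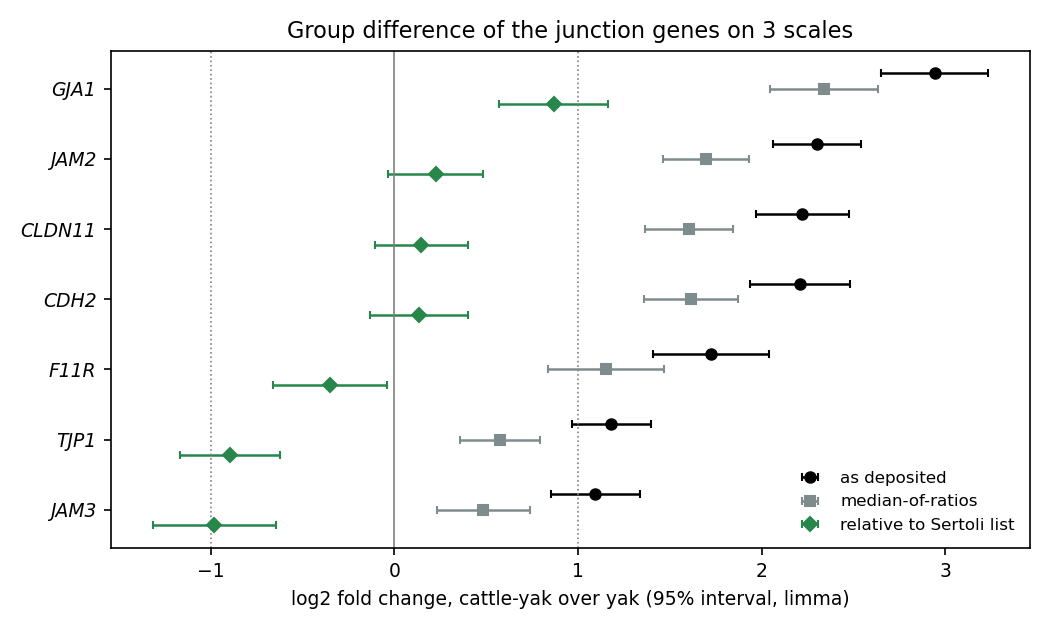
log2 fold change of cattle-yak over yak with its 95% interval from limma for the values as deposited, after median-of-ratios scaling and relative to the Sertoli list, with dotted lines at the threshold of 1 in either direction. All 7 genes lie above 0 on the first and second scale, while F11R, TJP1 and JAM3 lie below 0 on the third.

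Other cells of the testis also make some of these proteins, and their markers moved with the groups. Of 7 tested Leydig cell genes 7 were called higher in cattle-yak (median 1.92). Of these, 3 share the symbol CYP17A1 (1.16, 1.89 and 2.87), so the list holds fewer separate markers than genes. Of 6 myoid genes 5 were called higher (median 2.0), of 7 macrophage genes 4 with 2 lower, and of 7 endothelial genes 3 with VWF lower. Among all tested genes 33.4% were called higher and 20.8% lower. With median-of-ratios scaling 5 Leydig, 5 myoid, 2 macrophage and no endothelial genes were called higher, against 17.7%. The summed FPKM of the endothelial list came to 35.3 to 56.8 against 31.0 to 36.2 in yak, and that of the macrophage list 120.1 to 168.2 and 108.5 to 141.4. The Leydig list summed to 10446 to 12445 FPKM against 3345 to 4881, and the myoid list to 531.4 to 705.4 against 109.0 to 136.5. The duct epithelium list, where EPCAM held most of the sum, was at 146.2 to 191.7 and 143.3 to 171.7 FPKM, with KRT18 and the more abundant KRT8 gene called higher. Of 6 spermatogonial genes 5 were called higher (sums of 249.0 to 317.0 against 66.3 to 81.6 FPKM) and of 6 spermatocyte genes 1 (170.2 to 280.7 against 173.9 to 209.8 FPKM). The round spermatid genes summed to 4.67 to 26.9 FPKM in cattle-yak against 611.6 to 653.2 in yak, and the elongating spermatid genes to 13.3 to 68.8 against 8133 to 9917, with all 10 called lower and SPACA4 and TXNDC2 at 0 in at least 1 cattle-yak library. The part of these cell types in the differences of the junction genes was not tested.

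The other genes of Sertoli cell contacts were taken from 9 lists with 79 tested genes, of which 37 (46.8%) were called higher, 9 (11.4%) lower and 33 neither, against 33.4% and 20.8% of all tested genes. Their median log2 fold change was 0.91, nearer to that of all genes than to the 2.21 of the barrier genes. With median-of-ratios scaling 20 of the 79 were called higher and 11 lower (17.7% and 27.7% of all tested genes), and the 37 higher and 9 lower genes kept their sign. Relative to the Sertoli list 10 of the 37 lay above 0. On that scale none of the 79 was called higher and 46 were called lower, against 0.306% and 69.0% of all tested genes. Examples above 0 at an adjusted p under 0.05, picked after their values were seen, were SRC (0.72), MYO7A (0.54), VCL (0.51) and PLS3 (0.38). They are not a count of such genes among the 79. Of all tested genes 2.31% lay above 0 at that p. The values of these genes given next are on the deposited scale. Of those named, CLDN12, CLDN5, CGNL1, GJB1, DSP, PKP2, DSG2, CFL1 and ITGA6 were under the threshold of 1 with median-of-ratios scaling, at 0.64 to 0.998.

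**Figure D4:**
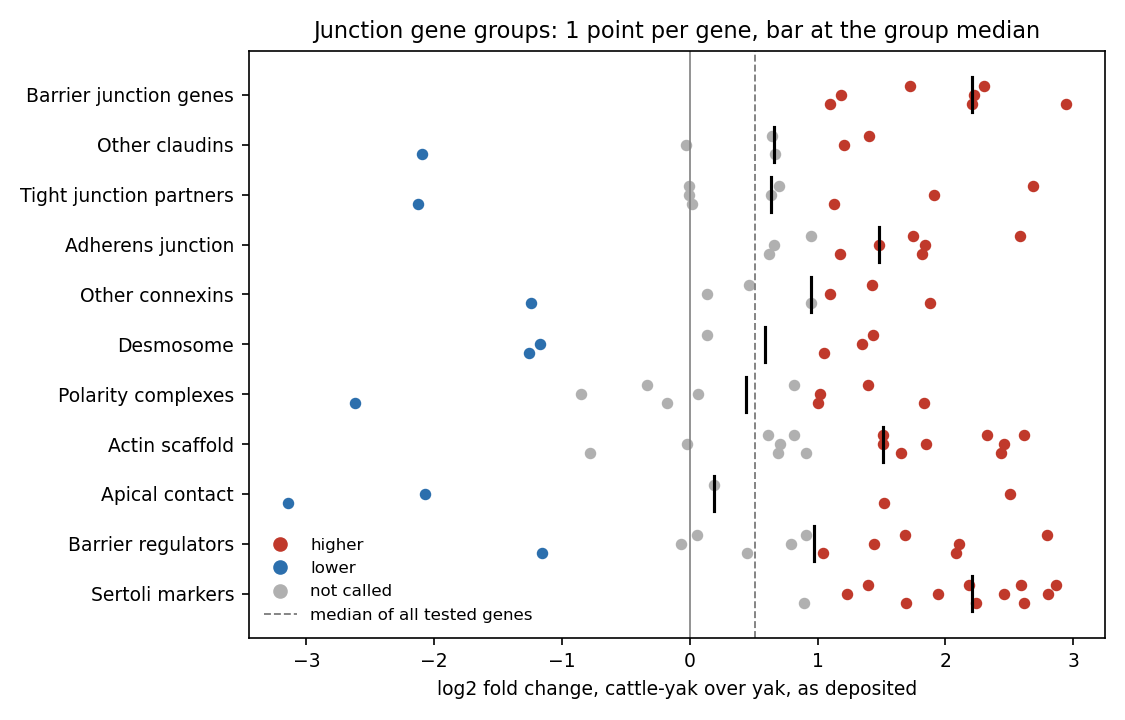
log2 fold change of cattle-yak over yak for each tested gene (points) of the 7 barrier junction genes, 9 lists of related contact genes and the Sertoli markers, coloured by call, with a bar at the list median and a dashed line at the median of all tested genes (0.51). The barrier junction genes and Sertoli markers share a median of 2.21, above that of each of the other lists.

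Among the other claudins, 6 genes were abundant enough to test, and none approached CLDN11. CLDN12 rose from 5.51 ± 0.85 to 16.2 ± 0.70 FPKM (SD, n = 3), by 1.41 on the log2 scale (limma adjusted p = 2.3e-05). CLDN5, the claudin of endothelium, rose by 1.2. CLDN9 was the exception in direction. It had 36, 13 and 42 fragments in Y1, Y2 and Y3 and 0 in each cattle-yak library, and was at least 8.92-fold lower there if 3 fragments per library are taken as the limit that a count of 0 allows. CLDN1, CLDN7 and CLDN10 had at most 2.67 FPKM in any animal and were not called.

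Of the partners at the tight junction, the cytoplasmic linker CGN (cingulin) rose from 5.77 ± 0.26 to 24.4 ± 0.82 FPKM (SD, n = 3), by 1.91 on the log2 scale (limma adjusted p = 1.4e-06), and CGNL1 rose by 1.13. IGSF5 (JAM4) was called lower, with 80, 60 and 82 fragments in Y1 to Y3 and 0, 1 and 1 in C1 to C3. TJP3, the epithelial ZO-3, had 2.46 FPKM or less in every animal and was not called.

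In the adherens junction list 6 of 9 genes were called higher and none lower, against 33.4% and 20.8% of all tested genes, and 4 were called higher with median-of-ratios scaling, against 17.7%. VCL (vinculin), which links catenins to actin, rose by 2.58 and NECTIN2, the nectin of Sertoli cells, by 1.84. CTNNB1 (beta-catenin), the most abundant of the list and the binding partner of cadherins, was under the threshold of 1. Its log2 fold change was 0.95, and 0.34 with median-of-ratios scaling. NECTIN3, the partner of nectin-2 on spermatids, went the other way, from 174.4 ± 13.1 FPKM in yak to 19.2 ± 5.44 in the hybrids (SD, n = 3), or −3.15 on the log2 scale (limma adjusted p = 1.4e-06). In the same list of apical contacts LAMA3 was lower by −2.07, while LAMC3 and ITGA6 were higher by 2.51 and 1.52.

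The other connexins stayed far under GJA1 in cattle-yak. GJC1 (connexin 45) had the highest level, 33.7 ± 3.32 FPKM against 17.0 ± 1.16 in yak (SD, n = 3). It missed the threshold with 0.95, and with 0.35 under median-of-ratios scaling. GJA4 (connexin 37) rose by 1.88, and GJB5 was lower by −1.24. Of 2 genes with the symbol GJB1, 1 was called higher, and genes that share a symbol are uncertain.

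In the desmosome list 3 of 6 genes were called higher and 2 lower, against 33.4% and 20.8% of all tested genes. DSP (desmoplakin), PKP2 and DSG2 were higher by 1.43, 1.35 and 1.05, and PKP1 and PKP4 lower by −1.26 and −1.17. With median-of-ratios scaling 0 were called higher and 2 lower, against 17.7% and 27.7%. Of the polarity kinases, PRKCI rose from 7.33 ± 1.39 to 28.4 ± 2.27 FPKM and PRKCZ fell from 49.4 ± 3.62 to 7.22 ± 1.14 (SD, n = 3), so that the more abundant of these atypical protein kinases C was another one in each group. In the actin scaffold, 8 of 15 genes were called higher and none lower (33.4% and 20.8% of all tested genes), or 6 higher and 1 lower with median-of-ratios scaling (17.7% and 27.7%). The largest log2 fold changes in that list were those of MYO7A (2.61) and PLS3 (2.46), and CFL1 (cofilin) was the most abundant with 878.6 ± 75.5 and 308.1 ± 37.2 FPKM (SD, n = 3). Among the regulators, the tyrosine kinases SRC and YES1 rose by 2.79 and 2.10, and MTOR was lower by −1.16.

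Over the 6 animals, the pattern of CLDN11 on log2 (FPKM + 1) was most like that of SEC22B, ZBTB38, COX7B, PBRM1 and ZNF664, with Pearson's r from 0.99976 to 0.99991. These correlations follow the group difference that the libraries share, and 1684 of 14677 genes with a symbol (11.5%) had r over 0.99 with CLDN11.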

How the data were processed

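Per the labels and the paper's methods, the authors made stranded mRNA libraries, trimmed the reads with Trimmomatic, mapped those of both groups with HISAT2 to the yak genome LU_Bosgru_v3.0, and obtained FPKM with Cufflinks and counts with HTSeq. Versions are not given in the sources used here. The deposited values are FPKM per gene and animal, scaled to the depth of each library and without further scaling between libraries. Whole fragments, gene model lengths and depths were recovered from the ratios of FPKM between libraries for 17973 of 18918 genes (within 0.01 of a whole number, and on simulated data equal for 98.37% of 4428 genes). Columns were matched by sample title.

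Genes with a mean of at least 0.5 FPKM (15042) entered a two-sided limma fit (3.58.1, R 4.3.3, variance trend) after addition of 1 FPKM and log2 transformation. All 7 junction genes passed this filter. This scale understates the change of low genes. For the comparison with Sertoli cells each library was centred on the mean of the Sertoli list. On simulated data for cattle-yak against yak, limma called 200 of 200 genes changed 4-fold and 1 unchanged gene of 14962 genes. In that simulation most genes were unchanged, whereas 5023 genes were called higher and 3136 lower on the deposited scale. The simulation held no changes as small as those of JAM3 (2.16-fold) and TJP1 (2.31-fold). It therefore cannot decide whether such calls are right, or which scaling between libraries is right. Within-library ratios were compared with exact permutation tests in Python 3.11.15 with scipy 1.17.1. limma took the place of a count test because the file holds FPKM.

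The junction genes and lists were chosen with earlier results of these data known. Named genes are every junction gene, the most abundant gene of each related list, up to 2 called genes with the largest change in each direction per list, and the 5 genes most like CLDN11. CLDN1, CLDN7, CLDN10, CGNL1, TJP3, DSG2, GJB1 and the genes given as rising more than the Sertoli list were added after their values were seen. Ratios planned with OCLN or CLDN3 could not be computed. Of the genes that the rule names, 2 are not reported here but stand in all counts. Chromosome positions were not used here. Alternatives were pseudocounts of 0.1 and 0.01, no filter or a minimum of 5 FPKM, median-of-ratios and Sertoli-centred scaling, other limma priors, voom on the fragments, the median of the Sertoli list, and the omission of each animal.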

Additional observations from a re-analysis of the deposited data

How the results depend on the processing

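All 7 junction genes were called higher with pseudocounts of 0.1 and 0.01, no filter, a minimum of 5 FPKM, no variance trend, a robust prior, voom on the recovered fragments, and with each animal left out (7 in every case), and 5 with median-of-ratios scaling. Centring on the Sertoli list left 0 called and turned TJP1 to −0.89, F11R to −0.35 and JAM3 to −0.98. In that comparison, the number called lower was 2 with pseudocounts of 0.1 and 0.01 and with a minimum of 5 FPKM (TJP1 and JAM3), 1 with the median of the list (JAM3), and 0 to 1 with an animal left out. There CLDN11 changed sign to −0.021 with a pseudocount of 0.1, to −0.045 with 0.01 and to −0.041 with the minimum of 5 FPKM, and CDH2 to −0.052 with that minimum, each within its error of 0. The rise of GJA1 stayed between 0.68 and 0.95 above that of the Sertoli list over these settings and omissions. Of the related lists, 20 genes were higher and 11 lower with median-of-ratios scaling, 0 and 46 with Sertoli centring, and 33 to 38 and 9 with an animal left out. Over all tested genes, 5023 were higher and 3136 lower as deposited, 2655 and 4173 with median-of-ratios scaling, and 46 and 10379 with Sertoli centring. With 3 animals per group an exact test cannot go below p = 0.1. No paired analysis was possible because the animals of the groups share no number in their labels.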

Other observations

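The 3 genes given first, named for a claudin or occludin domain, were singled out after their values were seen. Of these, 2 were called lower, as were 20.8% of all tested genes. CLDND2 (claudin domain containing 2) had 43.3, 37.9 and 37.0 FPKM in Y1, Y2 and Y3, and 1.18 and 0.179 in C1 and C2 with 0 in C3, and was called lower (limma adjusted p = 1.3e-06). OCEL1 (occludin/ELL domain containing 1) fell from 220.1 ± 29.0 to 30.3 ± 7.32 FPKM (SD, n = 3), with a log2 fold change of −2.84 (limma adjusted p = 2.4e-06). CLDND1 was at 98.3 ± 3.49 FPKM in the yak and 56.7 ± 9.64 in the hybrids (SD, n = 3), and its log2 fold change of −0.80 was short of the threshold of 1.

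The table annotates 91 further genes with the GO term for the bicellular tight junction, a list also taken after the values were seen and sharing genes with the lists above. Of its 75 tested genes 30 (40.0%) were called higher and 12 (16.0%) lower, against 33.4% and 20.8% of all tested genes (15 and 17 with median-of-ratios scaling, against 17.7% and 27.7%), with a median log2 fold change of 0.75. USP53 and SYNPO rose by 2.56 and 2.43. The largest falls were those of LIN7A, from 71.7 ± 5.12 FPKM in yak to 5.23 ± 2.09 in cattle-yak (SD, n = 3), and MAGI2, a scaffold with PDZ domains, from 15.6 ± 2.49 to 0.492 ± 0.097.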
